A study of Mus musculus with 18 samples.

Results

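Lysosomal hydrolases and lysosomal membrane proteins were followed as a group of 41 genes in RNA from striatal microglia, out of 55536 genes in the count table. Members were chosen by gene symbol, without cathepsins, and were matched to the Ensembl identifiers of the table with the GENCODE M21 annotation. Of the 41 genes, 40 reached a level of 1 CPM (counts scaled to a common library size) in 1 sample or more, as did 18613 genes of the whole table. The exception was Acp5, a tartrate-resistant acid phosphatase of osteoclasts and some macrophages, which ranged from 0 to 0.600 CPM and was not tested. The 40 tested members passed that filter on their level in any group.

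The 18 samples were bulk RNA-seq libraries of striatal cells purified with magnetic beads from adult C57BL/6 mice of both sexes (C57Bl6/J in the methods of the study). The 4 genotypes were WT (5 samples), Tyrobp-KO (3 samples), Q175 (5 samples) and Q175;Tyrobp-KO (5 samples). Q175 mice carry 1 allele of Htt in which human HTT exon 1 with an expanded CAG repeat replaced the mouse exon, and model Huntington's disease. Tyrobp-KO mice lack Tyrobp (DAP12), a signalling adaptor for TREM2 and other myeloid receptors, in all cells and throughout life, and the Q175;Tyrobp-KO mice carry both alterations. The beads captured CD11b, which microglia share with other myeloid cells. Per the methods the tissue was dissociated mouse by mouse. The labels give 2 striata a sample and the methods give 1, and the labels name no mouse for a sample, so p-values measure the spread between these samples, which may be in part technical.

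Lysosomes are acidic organelles in which microglia break down engulfed material, such as myelin, synapses and apoptotic cells. Soluble hydrolases are made in the endoplasmic reticulum, receive a mannose 6-phosphate tag in the Golgi and are carried by mannose 6-phosphate receptors to endosomes, while heavily glycosylated membrane proteins line the lysosome and channels and transporters export ions, lipids and breakdown products. Transcription factors of the MiT/TFE family, TFEB and TFE3 among them, bind the CLEAR element in many lysosomal promoters, and PU.1 is a master regulator of myeloid cells. The study stained striatal CD68 protein and measured Cd68 messenger RNA in striatal tissue. The comparison of genotypes here asks whether the messenger RNAs of the lysosome differed between them in purified cells.

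The promoters of the members were searched for the core of the CLEAR element because it is the sequence known to unite lysosomal genes. RefSeq promoters of build GRCm38.p6, 300 bases each with 250 before and 50 after the transcription start, were in the table for 38 of the 41 members. The letters GTCACGTG, read on either strand, were in the promoter of 9 of the 38 members (23.7%) and of 2.55% of all 27025 genes with a promoter. The shorter core CACGTG, which lies inside GTCACGTG, was in 10 of 38 (26.3%), the additional gene being Gaa, and in 8.09% of all genes. The PU.1-type letters GAGGAAGT were in 2 of 38 (5.26%; Gla and Gusb) and in 3.69% of all genes. The windows that hold GTCACGTG or its reverse complement CACGTGAC are shown 5′ to 3′ on the strand of the gene, with the matching letters in capitals. Where both readings overlap as GTCACGTGAC, the whole run is in capitals.
Igf2r, nearer to the start (chr17:12769696-12769725, minus strand): gccgactcagGTCACGTGACgctccgggga
Igf2r, farther from the start (chr17:12769739-12769766, minus strand): gaacgaggacGTCACGTGagcaggaggc
Mcoln1, farther from the start (chr8:3500436-3500463, plus strand): ggtcgcgcttGTCACGTGttcagttcag
Mcoln1, nearer to the start (chr8:3500464-3500491, plus strand): gcgccccgctCACGTGACcgcggcgcat
Lamp1 (chr8:13159123-13159150, plus strand): tgccgactggCACGTGACcacatcacgt
Cln3 (chr7:126583340-126583369, minus strand): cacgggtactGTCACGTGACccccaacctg
Arsa (chr15:89477425-89477452, minus strand): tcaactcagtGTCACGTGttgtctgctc
Glb1 (chr9:114401018-114401045, plus strand): ctgcttctgaGTCACGTGgcctacagag
Naglu (chr11:101070009-101070036, plus strand): caaccttcagGTCACGTGgcccgaggtc
Sgsh (chr11:119355522-119355549, minus strand): gcctgccgtgCACGTGACcgtggggagc
Gla (chrX:134601184-134601211, minus strand): tgagatctcgGTCACGTGagcaactctc
Igf2r and Mcoln1 each held 2 such places. The match nearest to the transcription start was that of Igf2r, which began 9 bases before it, and the farthest was that of Gla, 196 bases before it. A match of letters is a description and not a site of binding.

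In Q175 against WT, the 9 members with GTCACGTG had a median log2 fold change of -0.03 and the 28 tested members with a promoter but without it had -0.10. In Q175;Tyrobp-KO against Q175 the medians were 0.04 and 0.07, and in Tyrobp-KO against WT they were 0.03 and 0.08. No test was made of these medians.

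The libraries held 11260410 to 29771983 counts each, and the members took 0.523% to 1.18% of the counts. The labelled deletion was checked first. Tyrobp, the target of the knockout, was at 196 to 475 CPM in WT and 213 to 368 CPM in Q175, and at 17.5 to 21.3 CPM in Tyrobp-KO and 9.90 to 14.6 CPM in Q175;Tyrobp-KO. Microglial markers were abundant throughout, with a geometric mean of 456 to 1028 CPM over 20 genes, all of them detected in every sample. Markers of other cells were present at lower levels, with all 15 astrocyte genes and all 10 oligodendrocyte genes detected in every sample. The astrocyte level was 24.2 to 38.6 CPM in WT and 48.5 to 156 CPM in Q175, higher in Q175 in 25 of 25 sample pairs (exact permutation test, p = 0.00794, adjusted p = 0.233 over 44 tests). Tyrobp-KO replicate 20 and Q175 replicate 14 stood apart by mitochondrial genes, which took 6.12% and 7.26% of their counts against at most 2.83% in the others. Their astrocyte levels were 130 and 156 CPM, and Q175;Tyrobp-KO replicate 5, whose mitochondrial share was within the others, had 112 CPM. Q175 replicate 4 stood apart by the fewest counts, the lowest member share, the lowest microglial level (456 CPM) and the highest share of rRNA-like genes (29.5% of counts). Tyrobp-KO replicate 20 had 28.55% of its counts on rRNA-like genes, against 14.85% and 11.68% in the other Tyrobp-KO samples. Its levels of neuron and medium spiny neuron markers were 39.2 and 58.3 CPM, against at most 15.9 and 17.8 CPM in those samples. Females were 1 of 5 WT, 2 of 3 Tyrobp-KO, 4 of 5 Q175 and 2 of 5 Q175;Tyrobp-KO samples, so sex and genotype were unevenly paired.

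Several lysosomal genes were among the most abundant messages of these cells. Compared per kilobase of exon, Psap, the precursor of the saposins that present sphingolipids to their hydrolases, was the highest at 566 CPM per kb, in the 99.8th percentile of genes with 1 CPM. It was followed by Laptm5, a lysosomal membrane protein of blood cell lineages, at 252 CPM per kb, and by Hexa, the alpha subunit of beta-hexosaminidase, at 174 CPM per kb. Lamp1, the main glycoprotein of the lysosomal membrane, was at 162 CPM per kb, Laptm4a at 148, Cd68, a macrophage sialomucin, at 118, Grn (progranulin) at 112 and Asah1 (acid ceramidase) at 101. At the other end stood Galns, a sulfatase of keratan sulfate breakdown, at 3.12 CPM per kb, Igf2r, the cation-independent mannose 6-phosphate receptor, at 1.65, and Gla (alpha-galactosidase A) at 1.54. Exon length was the union over all transcripts of a gene, so genes with rare long transcripts, such as Lamp2 and Npc1, are understated on this scale.

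**Figure D1:**
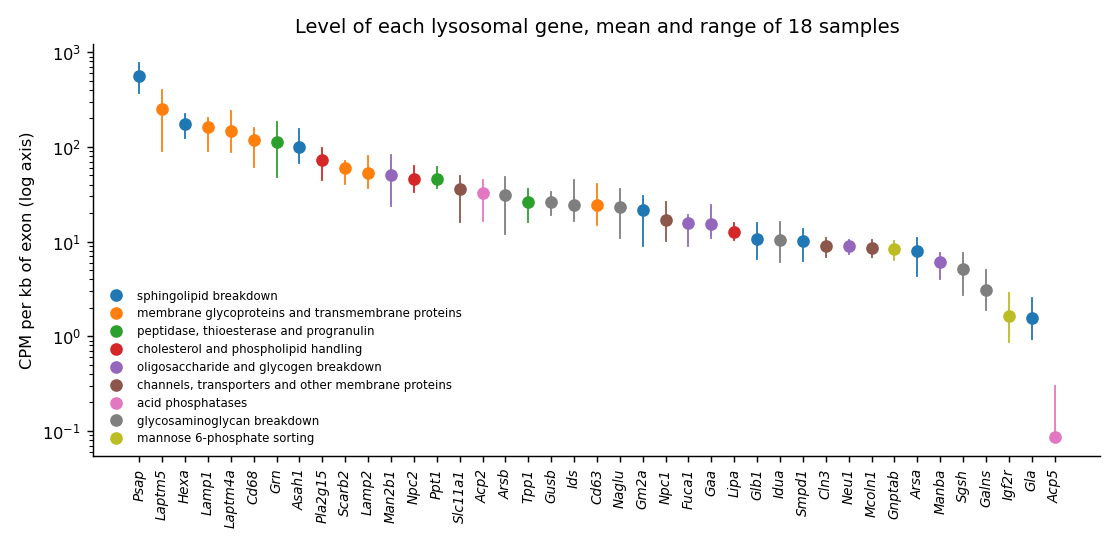
Mean level of each member over the 18 samples in CPM per kb of exon on a log axis, coloured by role, with a line from the lowest to the highest sample. Psap is highest at 566 CPM per kb and Acp5 lowest, and its line is drawn upward only because some of its samples are at 0.

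No member was called in any of the 7 comparisons by edgeR's quasi-likelihood test at a Benjamini-Hochberg adjusted p under 0.1 over all genes tested. Few genes of any kind were called by it: 0.0% of 18266 genes in Q175 against WT, 0.0111% of 18059 in Q175;Tyrobp-KO against Q175, 0.0222% of 18017 in Tyrobp-KO against WT and 0.0% of 17723 in Q175;Tyrobp-KO against Tyrobp-KO. Over all 18 samples, 0.0% of 18613 genes were called for the interaction of both alterations, 0.161% for Tyrobp deletion over both Htt genotypes and 0.0% for Q175 over both Tyrobp genotypes. Without adjustment, at p under 0.05, the called shares in the same order were 6.24%, 8.01%, 6.82%, 13.2%, 6.01%, 8.81% and 5.1% of all genes. Of the 40 members tested, the counts at that threshold were 0, 4, 0, 5, 0, 4 and 2, which for 40 genes are near those shares. DESeq2's Wald test, run as an alternative, called 1.28%, 0.227%, 0.932%, 3.84%, 0.0107%, 0.811% and 0.00537% of genes, and among the members 3 in Q175;Tyrobp-KO against Tyrobp-KO, 1 for Tyrobp deletion over both Htt genotypes and 0 in each of the others.

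The intervals of the differences were of limited width. A 95% interval inside 1 log2 unit on either side of 0, that is within a 2-fold change, was reached by 40 of 40 members in Q175 against WT, by 36 in Q175;Tyrobp-KO against Q175, by 35 in Tyrobp-KO against WT and by 39 in Q175;Tyrobp-KO against Tyrobp-KO. For the interaction it was reached by 27 of 40. The median distance from the estimate to either bound was 0.53 log2 units in Q175 against WT and 0.60 in Tyrobp-KO against WT, so that changes smaller than this could be missed.

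**Figure D2:**
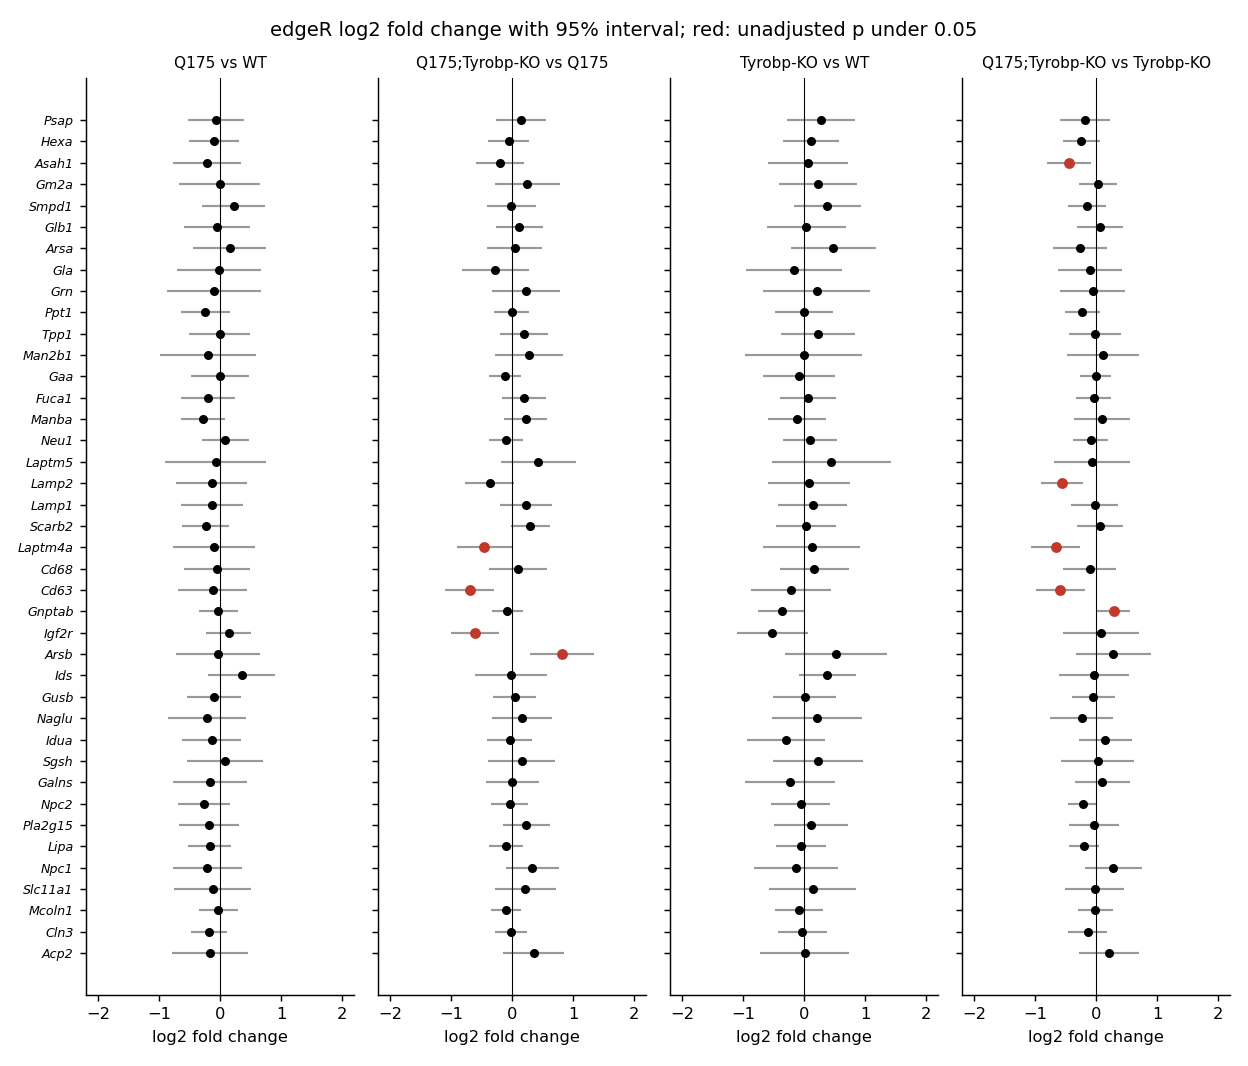
edgeR log2 fold change of the 40 tested members (points) with 95% intervals (lines) in the 4 pairwise comparisons, members ordered by role. Points in red have an unadjusted p under 0.05: none in Q175 against WT or Tyrobp-KO against WT, 4 in Q175;Tyrobp-KO against Q175 and 5 in Q175;Tyrobp-KO against Tyrobp-KO.

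The question whether Q175 microglia hold more lysosomal message was addressed by Q175 against WT. The median log2 fold change of the 40 members was -0.10, against -0.02 for all genes, and 6 of 40 were higher in Q175. Without Q175 replicate 4 the median was -0.005 and 19 of 40 were higher, and 15 of 40 were higher without WT replicate 7 and likewise without WT replicate 8. The 7 glycoproteins and transmembrane proteins of the membrane were all lower in Q175 at the mean, as were the 4 channels and transporters, and 5 of 7 enzymes of glycosaminoglycan breakdown, 6 of 8 of sphingolipid breakdown and 4 of 5 of oligosaccharide and glycogen breakdown, none with p under 0.05. The 3 members with the smallest p were Manba, beta-mannosidase, with a log2 fold change of -0.28 (SE 0.168, edgeR, adjusted p = 0.944), Ids, iduronate 2-sulfatase, with 0.35 (SE 0.255, adjusted p = 0.988) and Cln3, a membrane protein mutated in juvenile Batten disease, with -0.18 (SE 0.135, adjusted p = 0.988). For Ids the log2 fold change was 0.045 without Q175 replicate 14 and -0.70 with a score of astrocyte, neuron and oligodendrocyte markers as a term. Manba was lower in Q175 in 22 of 25 sample pairs and Cln3 in 23 of 25. With the same score as a term, 17 of 40 members were higher in Q175 instead of 6.

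Cd68 is the member whose protein was stained in the study, which also reported its messenger RNA in striatal tissue, by RT-qPCR, as not altered. Its messenger RNA was at 118, 147, 125, 192 and 164 CPM in WT replicates 1, 2, 6, 7 and 8, at 173, 197 and 107 CPM in Tyrobp-KO replicates 15, 19 and 20, at 171, 77.6, 150.2, 109.7 and 192 CPM in Q175 replicates 3, 4, 9, 14 and 17, and at 128, 145.5, 137, 165 and 175.3 CPM in Q175;Tyrobp-KO replicates 5, 11, 12, 13 and 16. The 4 groups overlapped, with the lowest value in Q175 replicate 4 and the highest in Tyrobp-KO replicate 19. The log2 fold change was -0.06 in Q175 against WT (95% interval -0.60 to 0.48) and 0.10 in Q175;Tyrobp-KO against Q175 (95% interval -0.38 to 0.58; edgeR, adjusted p = 0.833). Neither interval contains a 2-fold change. In Q175;Tyrobp-KO against Tyrobp-KO the log2 fold change was -0.11 (adjusted p = 0.858), and without Tyrobp-KO replicate 20 it was -0.33 (adjusted p = 0.274).

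Lamp1, Psap, Grn and Slc11a1 likewise had no p under 0.05 in any of the 7 comparisons with all samples. In the order WT (n = 5), Tyrobp-KO (n = 3), Q175 (n = 5) and Q175;Tyrobp-KO (n = 5), Lamp1 averaged 437 ± 80.9, 458 ± 109, 391 ± 110 and 456 ± 46.4 CPM (mean ± SD, as for all values in this order). Psap averaged 1530 ± 197, 1760 ± 385, 1428 ± 332 and 1579 ± 182 CPM, with log2 fold changes between -0.18 and 0.27 in the pairwise comparisons. Grn, progranulin, a glycoprotein that is delivered to lysosomes and limits microglial inflammation, averaged 386 ± 188, 422 ± 131, 352 ± 121 and 413 ± 88.4 CPM. Slc11a1, a metal transporter of phagolysosomes, averaged 135 ± 44.8, 141 ± 41.1, 121 ± 38.7 and 141 ± 23.7 CPM. On the log2 scale the largest difference of group means was 0.834 within-group standard deviations for Lamp1 and 1.202 for Psap. It was 0.53 for Grn and 0.589 for Slc11a1.

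**Figure D3:**
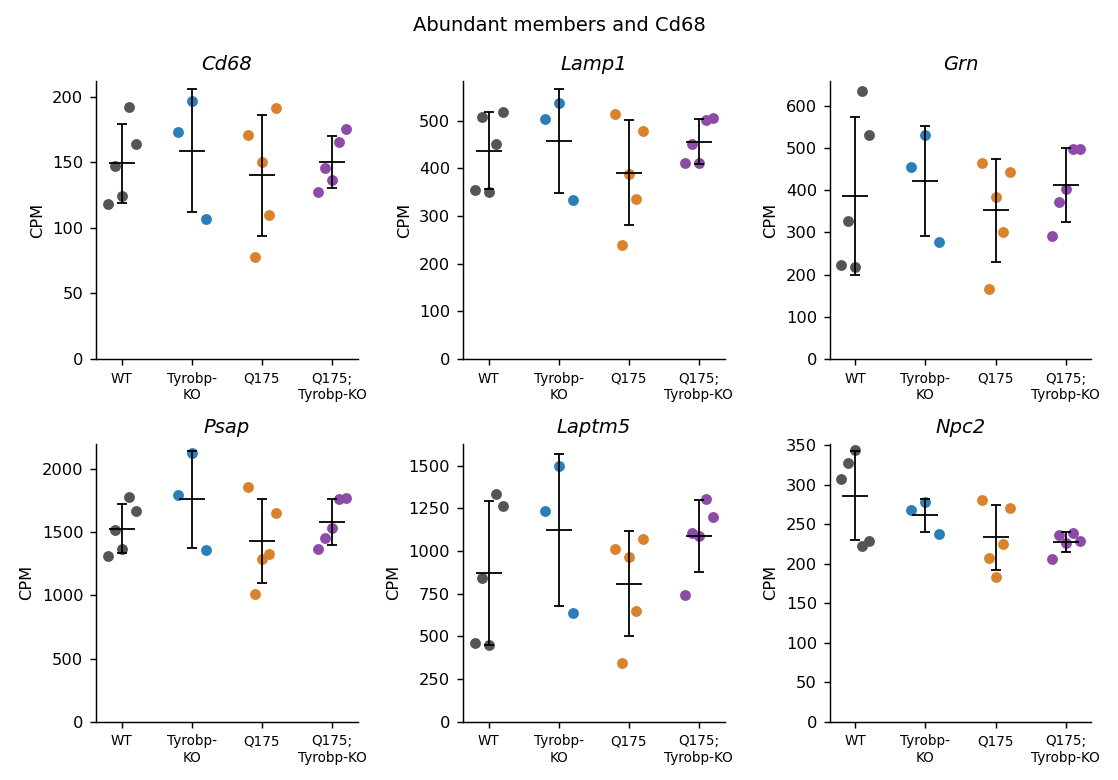
CPM of Cd68, Lamp1, Grn, Psap, Laptm5 and Npc2 in each sample (points) by genotype, with the group mean and SD (black); axes start at 0. The groups overlap in every panel, and Laptm5 spans 343 to 1501 CPM over the 18 samples.

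The enzymes of sphingolipid breakdown, whose substrates are abundant in myelin and neuronal membranes, were described in the order WT, Tyrobp-KO, Q175 and Q175;Tyrobp-KO. Hexa averaged 367 ± 36.7, 375 ± 67.3, 335 ± 72.5 and 321 ± 17.7 CPM. Its activator Gm2a, the protein that lifts ganglioside GM2 out of the membrane, averaged 84.8 ± 27.5, 94.4 ± 18.99, 82.5 ± 31.8 and 97.9 ± 7.41 CPM. Smpd1, acid sphingomyelinase, averaged 30.2 ± 8.30, 37.5 ± 3.80, 34.5 ± 9.11 and 34.2 ± 4.198 CPM. Glb1, beta-galactosidase, stayed between 30.6 and 33.3 CPM at the mean in the 4 groups. Arsa, which removes sulfate from the myelin lipid sulfatide, averaged 26.3 ± 9.61, 34.8 ± 8.30, 28.6 ± 7.93 and 29.5 ± 5.001 CPM, and its log2 fold change in Tyrobp-KO against WT was 0.48 (SE 0.313, edgeR, adjusted p = 0.892). Asah1 averaged 386 ± 134, 383 ± 48.0, 327 ± 74.1 and 285 ± 48.8 CPM, and was lower in the double mutant than in Tyrobp-KO in 13 of 15 sample pairs (log2 fold change -0.45, SE 0.161, edgeR, adjusted p = 0.315).

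Enzymes of glycosaminoglycan and oligosaccharide breakdown varied as widely within the groups. Ids averaged 106 ± 15.3, 133 ± 34.0, 133 ± 56.6 and 131 ± 37.8 CPM in the same order. Gusb, beta-glucuronidase, averaged 125 ± 24.2, 119 ± 22.9, 114 ± 23.5 and 117 ± 15.1 CPM, with pairwise log2 fold changes between -0.10 and 0.04. Naglu and Sgsh, which act in turn on heparan sulfate, averaged 54.1 to 70.5 CPM and 21.4 to 24.6 CPM in the 4 groups, and Idua, alpha-L-iduronidase, 37.2 to 48.4 CPM. Among oligosaccharide enzymes Man2b1 averaged 420 ± 218, 396 ± 142, 359.5 ± 130 and 435 ± 89.1 CPM, a spread within WT of 3.10-fold from lowest to highest. Manba averaged 46.1 ± 3.98, 40.4 ± 10.96, 37.4 ± 7.37 and 43.7 ± 6.79 CPM. Neu1, lysosomal sialidase, was 32.4 to 34.9 CPM and Gaa, which degrades glycogen, was 69.6 to 77.6 CPM at the mean of the groups.

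Channels and transporters also overlapped between the groups, as did Scarb2, Acp2 and Tpp1. Npc1, the membrane cholesterol exporter, averaged 202 ± 66.4, 174 ± 53.5, 171 ± 48.6 and 215 ± 30.1 CPM, with an interaction of 0.54 (SE 0.365, edgeR, adjusted p = 0.717). Mcoln1, a calcium channel of the lysosome that carries 2 GTCACGTG matches in its promoter, averaged 67.9 ± 8.24, 61.1 ± 8.66, 65.5 ± 6.88 and 61.2 ± 4.30 CPM. Cln3 averaged 57.4 ± 5.15, 53.4 ± 8.01, 49.5 ± 2.11 and 49.2 ± 6.92 CPM. Scarb2, the receptor that brings glucocerebrosidase to the lysosome, averaged 397 ± 30.9, 385 ± 90.2, 331 ± 60.4 and 407 ± 31.2 CPM, and the log2 fold change in Q175;Tyrobp-KO against Q175 was 0.30 (SE 0.148, edgeR, adjusted p = 0.533). Acp2, lysosomal acid phosphatase, averaged 171 ± 55.0, 163 ± 56.1, 150 ± 54.1 and 191 ± 21.2 CPM, and Tpp1, a tripeptidyl peptidase mutated in late infantile Batten disease, 131 ± 32.2, 146 ± 42.8, 128 ± 32.9 and 146 ± 17.96 CPM.

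Tyrobp deletion was compared on each Htt genotype. In Tyrobp-KO against WT, 25 of 40 members were higher, 15 of 40 without Tyrobp-KO replicate 19, and none had p under 0.05. In Q175;Tyrobp-KO against Q175, 21 of 40 were higher, and 4 had p under 0.05 with no adjusted p under 0.1. Without Q175 replicate 3, 8 members had p under 0.05, as did 1946 of 18013 genes tested, against 1446 of 18059 with all samples. With scaling by total counts 34 of 40 members were higher, as were 59.1% of all genes, against 44.9% in the planned fit. Of the 4, Cd63, a tetraspanin of late endosomes and exosomes, Igf2r, and Laptm4a, a small transmembrane protein of late endosomes, were lower in the double mutant and Arsb, N-acetylgalactosamine 4-sulfatase, was higher. With sex as a term, Cd63 had a log2 fold change of -0.48, Laptm4a -0.30, Arsb 0.71 and Igf2r -0.57.

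Igf2r was the member with the smallest p for Tyrobp deletion over both Htt genotypes. Its protein carries tagged hydrolases to endosomes, and it also binds IGF2; in the mouse the gene is imprinted, with expression from the maternal allele in most tissues. It was at 16.6, 17.3, 18.2, 18.4 and 15.8 CPM in WT replicates 1, 2, 6, 7 and 8 and at 8.75, 8.13 and 17.8 CPM in Tyrobp-KO replicates 15, 19 and 20. It was at 18.2, 26.8, 18.6, 16.3 and 14.1 CPM in Q175 replicates 3, 4, 9, 14 and 17 and at 14.3, 12.6, 12.97, 9.73 and 11.98 CPM in Q175;Tyrobp-KO replicates 5, 11, 12, 13 and 16. The double mutants were below Q175 in 24 of 25 sample pairs, and the only Tyrobp-deleted sample within the range of WT was Tyrobp-KO replicate 20, one of the pair with a high mitochondrial share.

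Over both Htt genotypes the log2 fold change of Igf2r with Tyrobp deletion was -0.60 (SE 0.154, edgeR, adjusted p = 0.237), and the DESeq2 estimate of -0.57 had an adjusted p of 0.0654. Without Tyrobp-KO replicate 20, edgeR gave -0.71 (SE 0.135, adjusted p = 0.0381), and without both libraries of high mitochondrial share -0.78 (adjusted p = 0.0336). The adjusted p ranged from 0.0336 to 0.598 over 26 alternatives, largest without Tyrobp-KO replicate 19. In Tyrobp-KO against WT the log2 fold change was -0.52 (SE 0.265, adjusted p = 0.797). It was -0.33 without Tyrobp-KO replicate 19 and -0.96 without Tyrobp-KO replicate 20 (edgeR, adjusted p = 0.170). In Q175;Tyrobp-KO against Q175 it was -0.61 (SE 0.182, adjusted p = 0.533). The difference between these effects, the interaction, was -0.03 (95% interval -0.69 to 0.64). For Q175 the log2 fold change of Igf2r was 0.14 (95% interval -0.24 to 0.51) with Tyrobp and 0.08 (95% interval -0.54 to 0.70) without it, the second becoming 0.53 (95% interval 0.08 to 0.97, adjusted p = 0.271) without Tyrobp-KO replicate 20.

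Gnptab, which encodes the enzyme subunits that put the mannose 6-phosphate tag on hydrolases, was 39.5 ± 2.15 CPM (SD, n = 3) in Tyrobp-KO and 53.6 ± 5.73 CPM (SD, n = 5) in WT. All 3 Tyrobp-KO samples, at 41.4, 37.2 and 40.01 CPM, were below the 5 WT samples, at 45.1 to 59.1 CPM, and below the 5 Q175;Tyrobp-KO samples, at 44.2 to 55.9 CPM. Of all genes tested, 3.28% were likewise lower in every Tyrobp-KO sample than in every WT sample, and 4.06% were higher in every Q175;Tyrobp-KO sample than in every Tyrobp-KO sample. The log2 fold change was -0.37 in Tyrobp-KO against WT (SE 0.173, edgeR, adjusted p = 0.746) and 0.29 in Q175;Tyrobp-KO against Tyrobp-KO (SE 0.121, adjusted p = 0.362). The interaction was 0.36 (SE 0.174, adjusted p = 0.716), the smallest p of the members in that test.

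Arsb was the member with the highest log2 fold change on Tyrobp deletion. It was at 177, 72.7, 168, 109.7 and 192 CPM in Q175 replicates 3, 4, 9, 14 and 17 and at 185, 260.3, 275, 275 and 272 CPM in Q175;Tyrobp-KO replicates 5, 11, 12, 13 and 16. Q175;Tyrobp-KO was above Q175 in 24 of 25 sample pairs, with a log2 fold change of 0.82 (SE 0.243, edgeR, adjusted p = 0.533). Among controls it was at 101, 141, 88.0, 209 and 215 CPM in WT and at 215, 289 and 113 CPM in Tyrobp-KO. The lowest of the 3 Tyrobp-KO values was that of replicate 20, and the log2 fold change against WT was 0.52 (SE 0.378, adjusted p = 0.932), or 0.19 without Tyrobp-KO replicate 19 and 0.80 without replicate 20.

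**Figure D4:**
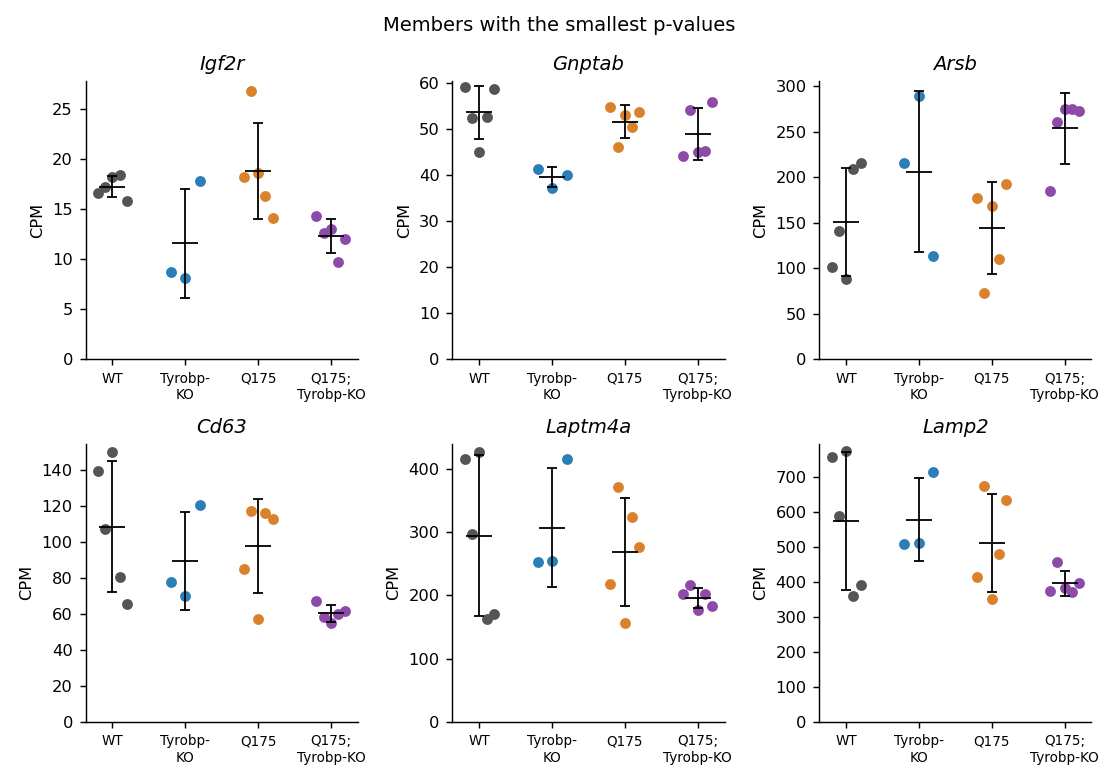
CPM of Igf2r, Gnptab, Arsb, Cd63, Laptm4a and Lamp2 in each sample (points) by genotype, with the group mean and SD (black); axes start at 0. In the double mutant Cd63 sits between 54.7 and 67.3 CPM and Laptm4a between 176 and 216 CPM, both narrower than in the other groups.

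The largest count of members with a low p came from Q175;Tyrobp-KO against Tyrobp-KO, and both the count and the sizes of the differences moved with Tyrobp-KO replicate 20. Laptm4a was at 253, 254 and 416 CPM in Tyrobp-KO and at 202, 216, 176, 202 and 184 CPM in the double mutant, with a log2 fold change of -0.67 (SE 0.178, edgeR, adjusted p = 0.291; DESeq2, adjusted p = 0.0552). Lamp2, the glycoprotein whose splice form 2A is the receptor of chaperone-mediated autophagy, was at 509, 511 and 714 CPM and at 374, 458, 382.5, 370.0 and 398 CPM, with -0.56 (SE 0.152, edgeR, adjusted p = 0.291; DESeq2, adjusted p = 0.0426). Cd63 was at 77.8, 69.9 and 121 CPM and at 67.3, 58.0, 54.7, 59.65 and 61.6 CPM, with -0.59 (SE 0.177, edgeR, adjusted p = 0.291; DESeq2, adjusted p = 0.0997). Every double mutant sample was below every Tyrobp-KO sample for these 3 members, as for 5.92% of the 17723 genes tested. Leaving out Tyrobp-KO replicate 20 gave -0.39, -0.39 and -0.32 for these 3, and 12 members in place of 5 had p under 0.05, 11 of them lower in the double mutant (the exception was Igf2r), while 15.9% of all genes had p under 0.05 in that fit. Without Q175;Tyrobp-KO replicate 16 the count of members was 3, and 1596 of 17674 genes had p under 0.05, against 2343 of 17723 with all samples. Hexa, Psap, Cd68, Naglu, Npc2, Arsa, Lipa and Ppt1 were among the 12, and Asah1 and Gnptab were not. The astrocyte marker level of Tyrobp-KO replicate 20 was 130 CPM, against 24.1 and 43.7 CPM in the other Tyrobp-KO samples. Over all samples, astrocyte markers were higher in the double mutant in 6 of 15 sample pairs and ependymal or choroid plexus markers in 15 of 15. Border-associated macrophage markers, at most 2.88 CPM, were higher in 0 of 15 pairs (exact permutation test, p = 0.0357, adjusted p = 0.25). Monocyte or neutrophil markers were higher in 1 of 15. The part of these levels in the result was not tested.

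For Q175 over both Tyrobp genotypes 2 members had p under 0.05, and both were lower. Npc2, a soluble cholesterol carrier of the lysosome that works with the membrane protein Npc1, had a log2 fold change of -0.25 (SE 0.112, edgeR, adjusted p = 0.813). Ppt1, a thioesterase that removes palmitate from proteins, had -0.24 (SE 0.109, adjusted p = 0.813). Lipa, lysosomal acid lipase, had -0.19 (SE 0.093, adjusted p = 0.813). The count of members with p under 0.05 ranged from 0 to 7 when single libraries were left out. It was 0 with WT replicate 1, 2 or 6, Tyrobp-KO replicate 15, Q175 replicate 9 or Q175;Tyrobp-KO replicate 5 left out, and 7 without WT replicate 7 and likewise without WT replicate 8. Over all genes, 566 to 690 had p under 0.05 in the fits with 0 members, against 950 of 18613 with all samples. The number was 1797 of 18576 genes without WT replicate 7 and 1674 of 18573 without WT replicate 8. Without Tyrobp-KO replicate 20, where 4 members had p under 0.05, it was 2430 of 18578 genes.

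The differences between group means were set beside the spread between samples of 1 genotype. For 39 of 40 members the widest range inside a group exceeded the largest difference between group means, the exception being Gnptab. The widest of several ranges is large by construction beside a difference of means, and the share over all genes was not examined. The count of 39 therefore does not show where most of the variation lay. The largest difference between group means was below the within-group standard deviation for 23 of 40 members and above it for 17. It was above 2 standard deviations for 2 members, Gnptab with 3.18 and Igf2r with 2.35. The median within-group standard deviation was 0.344 log2 units for members, against 0.306 for 11923 genes at least as abundant as the lowest member. This spread was shared: the first principal component of the members' deviations from their group means held 76.5% of the within-group variance of the 40 members. The first component of all 18613 genes with 1 CPM held 40.1% of theirs. Those genes are more numerous and include many less abundant than the lowest member. A set matched to the members in size and level was not examined. Whether lysosomal genes share more of their spread than such a set was not tested.

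Laptm5, at 460, 841, 450, 1333 and 1264 CPM in WT replicates 1, 2, 6, 7 and 8, was highest where Lamp2, at 757, 589, 774, 360 and 390 CPM in the same samples, was lowest. The same opposition was seen for Man2b1 (lysosomal alpha-mannosidase), at 243, 338, 211, 655 and 652 CPM, and Laptm4a, at 417, 297, 427, 162 and 170 CPM. On the component, 31 members had a positive weight, led by Laptm5, Man2b1, Grn and Arsb, and 9 had a negative weight, which were Laptm4a, Cd63, Lamp2, Asah1, Igf2r, Ids, Ppt1, Lipa and Npc2. The members whose group differences had the smallest p (Cd63, Igf2r, Lamp2 and Laptm4a) were of the negative side, and Arsb was on the positive side. In WT, replicates 7 and 8 held the highest Grn, at 636 and 530 CPM, and the lowest Cd63, at 80.7 and 65.5 CPM. The same 2 WT samples had Tyrobp levels of 239 and 196 CPM, against 395 to 475 CPM in the other 3. Mitochondrial share in WT was 0.620% to 1.31%, and the part of these values in the spread was not tested. Fewer cells and less RNA per cell cannot be told apart in bulk samples.

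**Figure D5:**
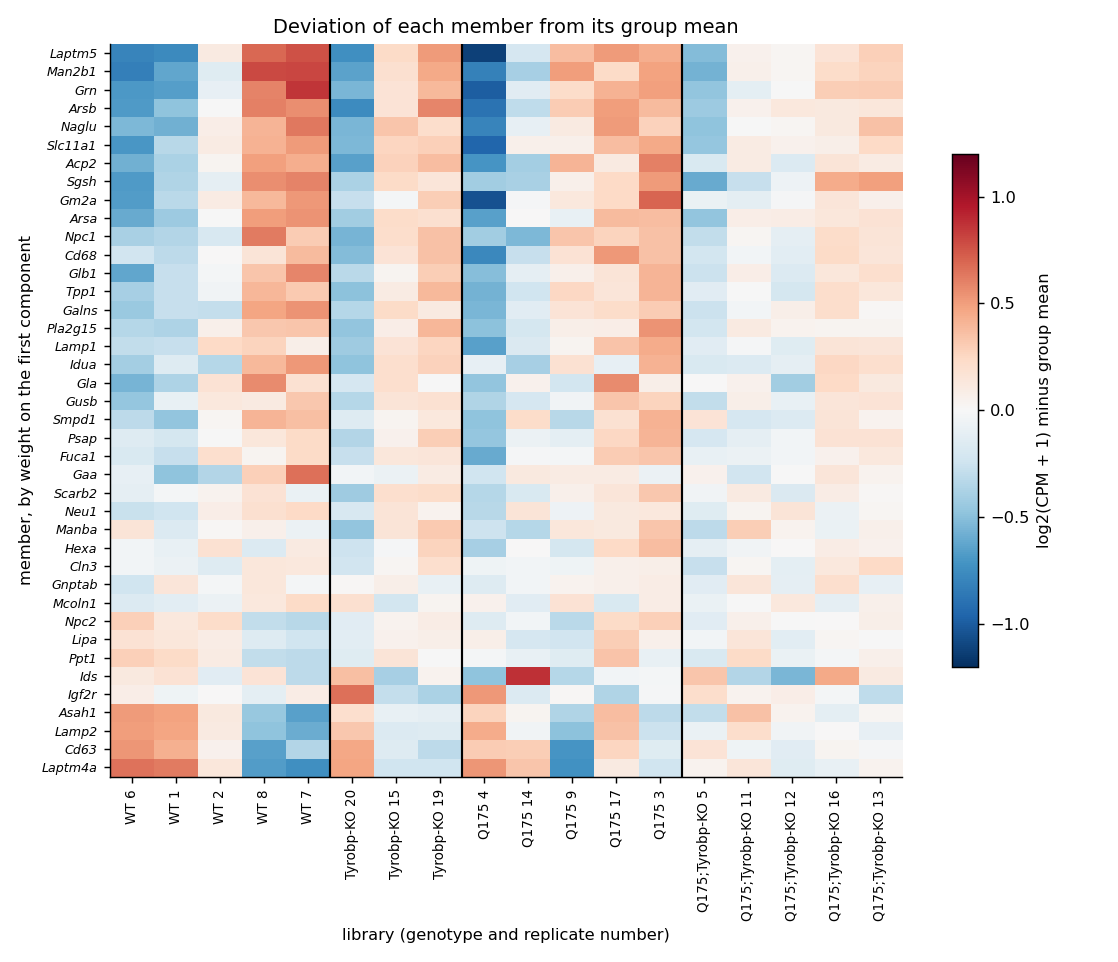
Deviation of each member's log2(CPM + 1) from its group mean in the 18 libraries, members ordered by weight on the first component and libraries within a genotype by their score on it. In WT and Tyrobp-KO, samples that are high for the 31 upper members tend to be low for Laptm4a, Cd63, Lamp2 and Asah1. The contrast is clear among the WT samples. It is less even in Q175, where replicate 17 is highest for both Laptm5 and Asah1. In Q175;Tyrobp-KO it is not seen, and replicate 5 is lowest for both Laptm5 and Asah1.

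Further genes of the lysosome were grouped by family, and edgeR called no gene of any of these lists in any comparison. Of 18 tested subunits of the V-ATPase, the proton pump that acidifies the lysosome, 9 had p under 0.05 and were lower in Q175;Tyrobp-KO than in Tyrobp-KO, and 1 was higher, against 13.2% of all genes in that comparison. The 3 with the smallest p there were Atp6v0b with a log2 fold change of -0.50 (SE 0.0952), Atp6ap2 with -0.61 (SE 0.134) and Atp6v1c1 with -0.46 (SE 0.116; edgeR, adjusted p = 0.291 for each), and DESeq2 called 5 of the 18. Without Tyrobp-KO replicate 20, 7 of 18 were lower at that threshold and 0 were higher, against 15.9% of all genes. In the other 3 pairwise comparisons 1 to 3 V-ATPase genes had p under 0.05. Of the 3 tested MiT/TFE factors (Tfeb, Tfe3 and Mitf), none had p under 0.05 in any comparison. Of 23 other hydrolases and activators, 4 were lower at that threshold in Q175;Tyrobp-KO than in Tyrobp-KO, among them Ggh (gamma-glutamyl hydrolase) with -0.58 (SE 0.167), and of 24 other membrane proteins 1 was higher and 4 were lower. Of 17 genes of lysosomal enzyme sorting, 2 were lower, Vps26a with -0.37 (SE 0.116) and Vps35 with -0.46 (SE 0.152). Both are subunits of the retromer complex that returns receptors to the Golgi, and 2 of 17 is near the 13.2% of all genes. The counts of hydrolases and membrane proteins stand beside the same share, which holds genes of either direction. DESeq2 called 1 gene of each of these lists in that comparison, all lower, against 3.84% of all genes. They were Ggh (DESeq2, adjusted p = 0.0803), the membrane protein Cd164 (adjusted p = 0.0553) and Vps26a (adjusted p = 0.0903). Without Tyrobp-KO replicate 20 the lower genes numbered 5 of the hydrolases, 1 of the membrane proteins and 4 of the sorting genes, and 2 membrane proteins were higher. Of all genes in that fit, 15.9% had p under 0.05. Of 13 tested genes of the response to tissue dissociation, such as Fosb and Egr1, 1 was lower and 0 were higher in Q175;Tyrobp-KO than in Tyrobp-KO with all samples. The lower gene was Nfkbia, with -0.52 (SE 0.117, edgeR, adjusted p = 0.291; DESeq2, adjusted p = 0.0137). Over both Htt genotypes, Egr1 had -1.14 with Tyrobp deletion (SE 0.288, edgeR, adjusted p = 0.230; DESeq2, adjusted p = 0.0314).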

How the data were processed

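Per the labels and methods of the study, RNA from bead-purified cells was sequenced with a low-input SMART-Seq kit. The methods also name non-directional libraries made with a NEB kit and depletion of ribosomal RNA, without separating tissue from microglia libraries. Reads were aligned with STAR to GRCm38 and counted per gene with featureCounts. The deposited file holds raw counts of the authors for 55536 genes (the submitters' processing notes name GRCh38; all identifiers matched GENCODE M21). Without strand, reads from overlapping antisense genes, as at Lamp1, Arsa, Npc1 and Grn, cannot be told apart. 2 count columns matched no labelled sample and were not used. No pair of libraries agreed within sampling noise.

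Samples were grouped by labelled genotype. Levels are CPM with TMM factors. edgeR 4.0.16 (quasi-likelihood, R 4.3.3) was fitted to each pair of groups and, over all 18 samples, to a model with an interaction and an additive model, after a filter of 1 CPM in 1 or more samples, at a Benjamini-Hochberg adjusted p of 0.1 over all genes. DESeq2 1.42.0, other scalings, filters, covariates (sex; a score of non-microglial markers) and leaving out samples were alternatives. Scripts were tested on simulated data. Depths were 11260410 to 29771983 counts. Tested members held from 35 counts in 1 sample (Gla) upward, and counting error is a larger share of the spread for such low members.

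Members called by edgeR or DESeq2, the 3 smallest p of each comparison, the most abundant of each role and Cd68 were named by rule. Some further members were chosen after their values were seen. The members and lists were chosen with earlier results of these data known.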

Additional observations from a re-analysis of the deposited data

Results flagged for a closer look

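Among the named members, 63 groups of 5 samples were examined for a value far from the rest, and 4 were found, while chance flags about 1 in 20 groups. Arsb was lowest in Q175;Tyrobp-KO replicate 5, at 184.9 CPM against 260.3 to 275.1 CPM in the other 4. Pla2g15, lysosomal phospholipase A2, was lowest in the same library, at 194.4 CPM against 232.3 to 244.4 CPM. The astrocyte marker level of that library was 112 CPM, against 23.1 to 75.7 CPM in the other 4, and its part in these values was not tested. Ids was highest in Q175 replicate 14, at 230.3 CPM against 88.8 to 123.0 CPM, and that library had 7.26% of its counts on mitochondrial genes. Ppt1 was highest in Q175 replicate 17, at 197.3 CPM against 140.1 to 152.9 CPM.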

How the results depend on the processing

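No member passed the edgeR threshold in the planned fits, and this held under most alternatives. DESeq2 called 3 members in Q175;Tyrobp-KO against Tyrobp-KO (Cd63, Lamp2 and Laptm4a) and 1 for Tyrobp deletion over both Htt genotypes (Igf2r). Leaving out single libraries gave 0 to 1 members called for Tyrobp deletion over both Htt genotypes, the 1 being Igf2r without Tyrobp-KO replicate 20, and leaving out both libraries with over 5% mitochondrial counts, an alternative chosen after seeing the data, also gave 1. Of the counts of called members, 153 values kept their side and 4 moved. The log2 fold change of Ids in Q175 against WT, 0.35, became -0.70 with the non-microglial marker score as a term and 0.045 without Q175 replicate 14. The cause was not tested. Scaling by total counts raised the median of all genes in Q175;Tyrobp-KO against Q175 from -0.05 to 0.08 and the number of higher members from 21 to 34 of 40, and in the interaction from 0.04 to 0.15. No paired analysis was possible because no replicate number occurs in more than 1 genotype. With 3 to 5 samples a group, changes within the stated intervals could be missed.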
